A study of Rattus norvegicus with 15 samples.

Results

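Cyclin D1 (Ccnd1), Myc and stathmin (Stmn1) are 3 genes of cell growth and division, and they are described here in rat liver tissue at the end of a diet that leads to hepatocellular carcinoma. Each gene has 1 probe that carries its symbol alone, so the 3 genes are 3 of 3757 probes and 3 of the 3400 genes named by such probes. The genes were chosen by their symbols, with earlier results of these data known: the differences between the 3 tissues, the high Ccnd1 value of noncancerous sample 1 and the low values of Stmn1 in cirrhotic liver. Their values in the 3 comparisons between tissues are therefore a description and carry no test.

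The study measured RNA of liver from male rats of the Fischer344 strain (the label of control 1 says Fischer) on 15 arrays. Hepatocellular carcinoma made up 5 of them and the noncancerous, cirrhotic tissue next to such tumours another 5, in both cases from rats kept for 70 weeks on a diet that was choline-deficient and L-amino acid-defined. The other 5 were control liver of rats on a basal diet for the same time. No label gives a transgene, a drug or another treatment. The labels do not say whether a carcinoma and a noncancerous sample of the same number share an animal, or whether each sample comes from an animal of its own, so the spread between samples may be partly technical.

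Cyclin D1 is the regulatory partner of the kinases CDK4 and CDK6. It is made when a cell receives a growth signal, and the complex phosphorylates the retinoblastoma protein so that the cell passes from G1 into S phase. MYC is a transcription factor that binds DNA as a dimer with MAX and drives genes of ribosome assembly, nucleotide synthesis and glycolysis. Stathmin binds tubulin dimers and destabilises microtubules, an activity that is switched off by phosphorylation as the mitotic spindle forms. In resting adult liver all 3 are known to be low and to be induced in regeneration, and each has been reported as raised in human liver cancer.

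The unit needs a word before the values. A deposited value is a linear ratio that sets the probe against its median across the 15 arrays, so that 1 is that median. Such a ratio has no absolute level, so the 3 genes cannot be ranked against each other by abundance and no gene can be called absent. Quantile normalization over all arrays and a log2 transform gave the values used for the comparisons, where 0 lies near the probe's median, and this is called the normalized log2 ratio. The arrays differed: 0 to 229 values an array lay at the lower limit of 0.01, with 209 in noncancerous 1 and 229 in control 1, and arrays of 1 tissue correlated at Pearson's r between -0.30 and 0.53 across all probes. None of the 3 genes had a value at that limit. The r was taken on log2 deposited ratios, from which each probe's median is already divided out, so it does not compare absolute levels. The number of arrays limits the precision, and over all probes the 95% interval reached 1.27 log2 units to either side of a difference in the median.

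Of the 3 genes, Stmn1 had a promoter in the RefSeq promoter table of the build GRCr8. It is shown because only 1 of the 3 genes had a promoter there. The Stmn1 promoter holds a binding motif of the MYC and MAX dimer. The window is the 250 bases before the annotated start, chr5:151964929-151965178 on the plus strand, read 5′ to 3′. Capitals mark CACGTG, the E-box bound by MYC and MAX, CCAAT, the box bound by NF-Y, and TTTGGCGC, a form of the E2F motif of S phase genes.
Stmn1 promoter: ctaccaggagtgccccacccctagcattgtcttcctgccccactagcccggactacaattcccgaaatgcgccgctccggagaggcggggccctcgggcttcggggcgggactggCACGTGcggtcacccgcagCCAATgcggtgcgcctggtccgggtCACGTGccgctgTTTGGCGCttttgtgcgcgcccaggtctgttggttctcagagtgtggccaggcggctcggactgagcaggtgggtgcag
The E-box stood there 2 times, starting 135 and 91 bases before the start, and the motifs did not overlap. Both strands were searched. An E-box was found in 5.59% of the 33469 promoter windows of this length, at least 2 of them in 0.43%, TTTGGCGC in 0.412% and CCAAT in 34%. These matches describe the sequence, and no binding was measured.

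Ccnd1 was high in 1 cirrhotic sample and close to its median in the other 4. The deposited ratio in carcinoma was 2.63 in sample 1, 0.639 in sample 2, 0.292 in sample 3, 0.256 in sample 4 and 1.13 in sample 5. In noncancerous cirrhotic liver it was 14.9 in sample 1, 1 in sample 2, 1.19 in sample 3, 1.15 in sample 4 and 1.12 in sample 5. In control liver it was 0.835 in sample 1, 0.195 in sample 2, 1.41 in sample 3, 0.554 in sample 4 and 0.928 in sample 5. The cirrhotic samples other than noncancerous 1 lay close together, whereas the carcinomas and the controls each held both low samples and samples above 1. Each tissue overlapped the others in range, and carcinoma 1 and control 3 were above every cirrhotic sample but noncancerous 1.

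**Figure D1:**
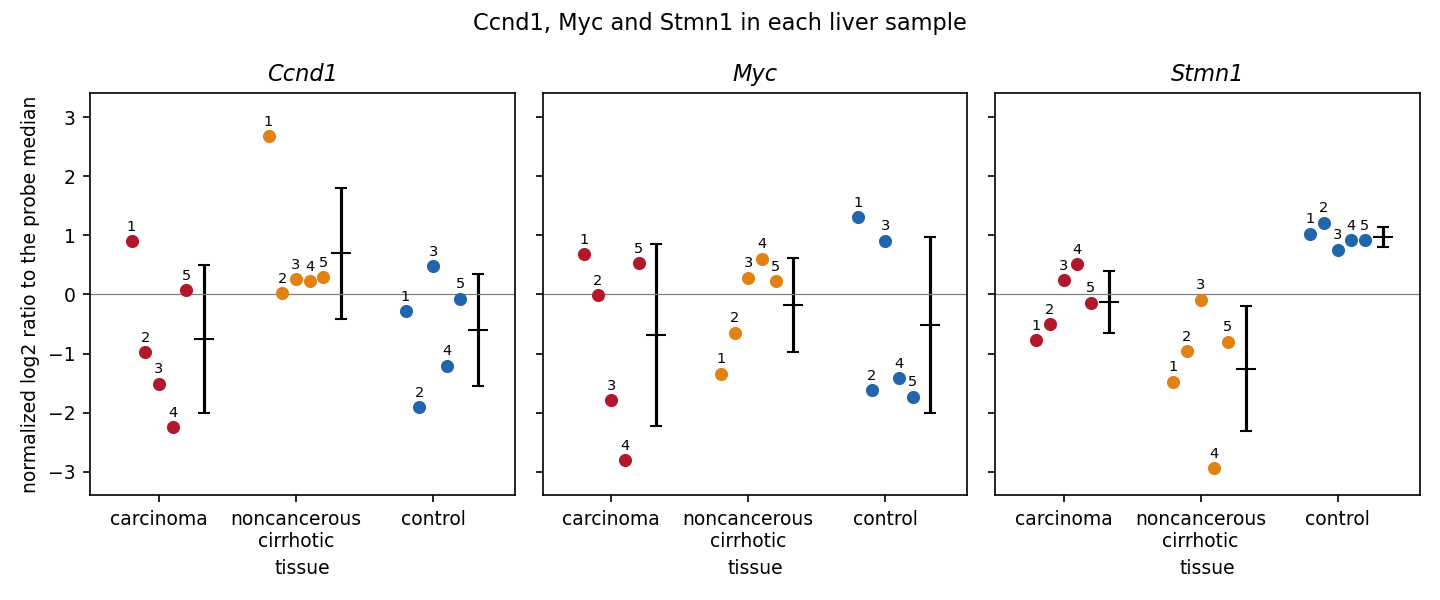
Normalized log2 ratio of Ccnd1, Myc and Stmn1 (vertical axis) in carcinoma, noncancerous cirrhotic and control liver; each point is 1 sample with its number, and the bar beside it is the mean with its SD (n = 5). Ccnd1 of noncancerous 1 stands alone at 2.67, Myc spreads widely in every tissue, and the 5 controls of Stmn1 lie above the 10 other samples.

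On the normalized log2 scale Ccnd1 averaged -0.75 ± 1.25 in carcinoma, 0.69 ± 1.11 in cirrhotic liver and -0.60 ± 0.95 in control liver (SD, n = 5 each). Cirrhotic liver thus had the highest mean, followed by control liver and carcinoma, and these last did not differ beyond their spread. The difference between cirrhotic and control liver was 1.29 (95% interval -0.09 to 2.68), with the cirrhotic sample higher in 21 of the 25 pairs of samples. Between carcinoma and control liver it was -0.15 (-1.54 to 1.23), and between carcinoma and cirrhotic liver -1.45 (-2.83 to -0.06). Of all 3757 probes 0% passed an adjusted p of 0.05 in limma in any of the 3 comparisons, these 3 genes included. At an unadjusted p under 0.05 the share of all probes was 9.64% between cirrhotic and control liver, 7.4% between carcinoma and control liver and 13.2% between carcinoma and cirrhotic liver.

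Noncancerous 1 set much of the cyclin D1 difference. Its normalized log2 ratio for Ccnd1 was 2.67, while the other 4 cirrhotic samples lay between 0.02 and 0.29, so the gap was 0.898 of the range of the group. On the deposited scale it was 12.5 times the next cirrhotic sample. With it, the deposited ratio of the cirrhotic samples averaged 3.87 ± 6.16 (SD, n = 5), and without it 1.12 ± 0.0833 (SD, n = 4). On the log2 scale the group mean fell to 0.20 ± 0.12 (SD, n = 4) without it, against 0.69 ± 1.11 (SD, n = 5) with it. Most of the spread of Ccnd1 in cirrhotic liver was therefore this sample.

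With noncancerous 1 left out and the other 14 arrays normalized anew, the Ccnd1 difference between cirrhotic and control liver was 0.77 (95% interval -0.66 to 2.19). Between carcinoma and cirrhotic liver it was then -0.92 (-2.35 to 0.51), an interval that includes 0. The interval with all samples did not include 0 in the main fit. On the deposited ratios (-3.11 to 0.17) and with arrays scaled to the same median (-3.07 to 0.18) it did. With array weights it also did (-2.53 to 0.07). The interval of this comparison also included 0 without carcinoma 2 (-1.42), carcinoma 3 (-1.26) or carcinoma 4 (-1.08). The difference between carcinoma and control liver stayed at -0.15, and without carcinoma 4 it was 0.22. The group medians of that pair differed by -0.70. Differences between group medians, which 1 sample moves little, were 0.54 between cirrhotic and control liver and -1.24 between carcinoma and cirrhotic liver. No other single omission took the difference between cirrhotic and control liver below 0.97, the value without control 2. Its interval, which includes 0 with all samples, did not include 0 without control 3 (0.09 to 3.04) or without carcinoma 4 (0.01 to 2.58).

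**Figure D2:**
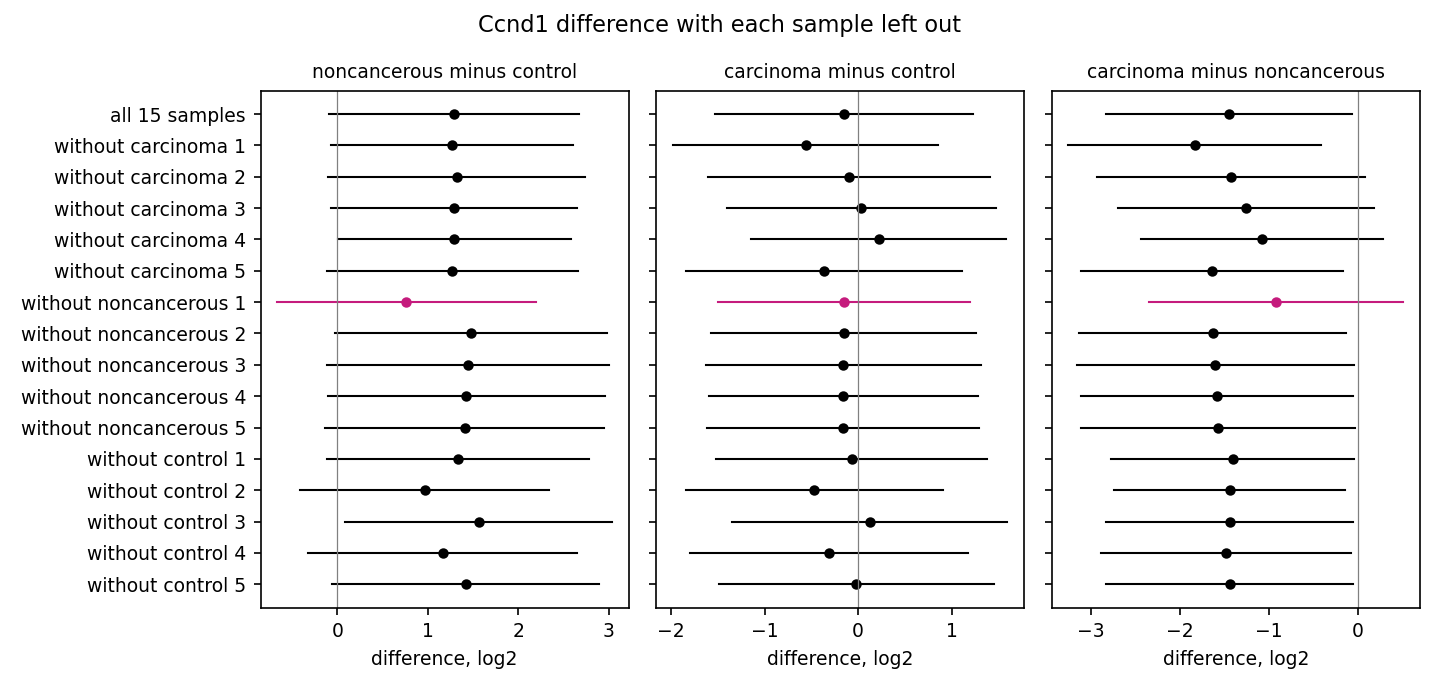
Difference of Ccnd1 in log2 units (horizontal axis) with its 95% interval in each comparison, for all 15 samples (top row) and with each sample left out in turn; the fit without noncancerous 1 is in magenta. Leaving out noncancerous 1 gives 0.77 between cirrhotic and control liver and -0.92 between carcinoma and cirrhotic liver.

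The noncancerous 1 value was high on its own array too. Ccnd1 ranked 27 from the top of 3757 probes there, and 64 probes of that array had a deposited ratio above 10, the highest count among the 15 arrays (0 to 40 in the others). This sample stood apart upwards from the other cirrhotic samples, by a gap over 0.71 of the group's range, in 24 probes (0.639% of all), and downwards in 56. It held the highest value of the 15 samples in 6.44% of probes. Deposited ratios shifted in stretches of neighbouring probe numbers, and the running median of the normalized log2 ratio over 50 probes on either side of Ccnd1 was 0.38 in noncancerous 1. The 17 other probes numbered within 10 of Ccnd1 lay between -2.46 and 1.88 on that array, all below Ccnd1. The value was 2.29 above the running median and 2.01 above the median of the 17 nearer probes.

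**Figure D3:**
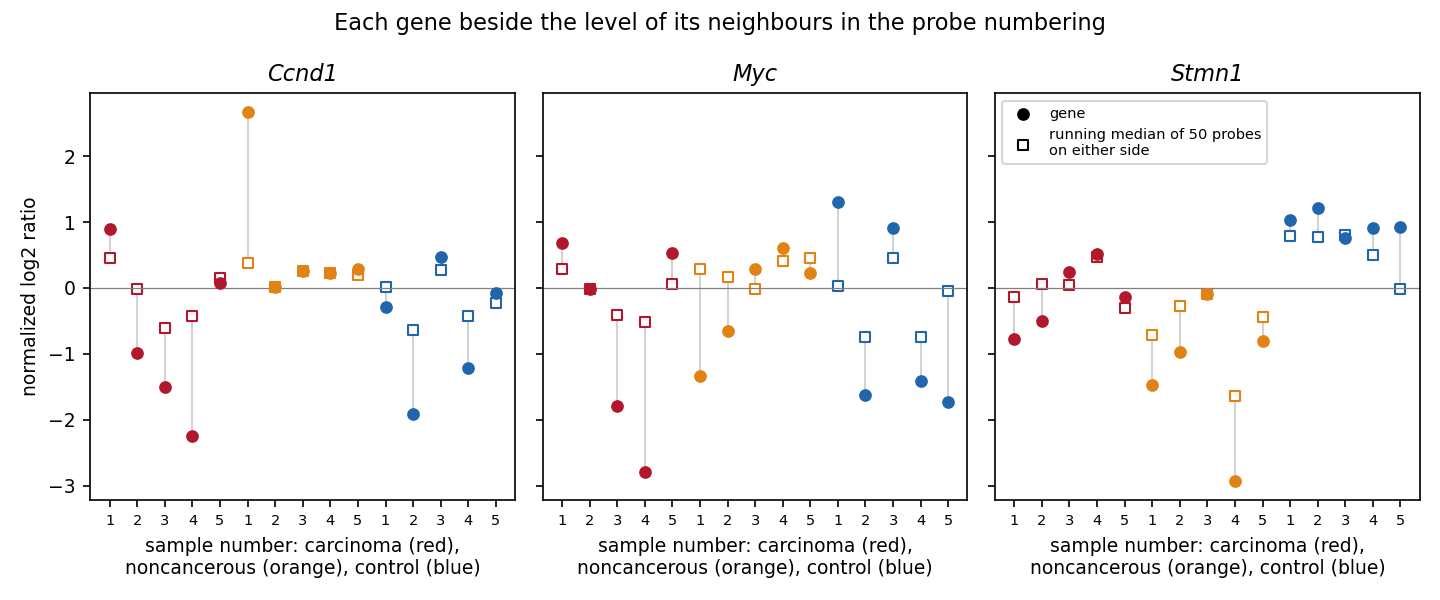
Normalized log2 ratio of each gene (filled circle) and the running median over 50 probes on either side of it in the probe numbering (open square), by sample and coloured by tissue. For Ccnd1 the gap is largest in noncancerous 1, and for Stmn1 the squares of 4 controls lie near 0.49 to 0.81 and those of noncancerous 4 at -1.65.

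The lowest Ccnd1 samples went with low neighbours as well, though carcinoma 2, at -0.98 for Ccnd1, had a running median of -0.02. In carcinoma the running median at Ccnd1 was -0.61 in sample 3 and -0.43 in sample 4, and in control liver it was -0.64 in sample 2 and -0.43 in sample 4, which are the samples in which Ccnd1 was lowest. With the running median removed from each array, the Ccnd1 difference was 0.88 (-0.26 to 2.02) between cirrhotic and control liver and -1.14 (-2.28 to -0.003) between carcinoma and cirrhotic liver. The part of these shifts in the differences was not tested.

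The other D-type cyclins, which also pair with CDK4 and CDK6, were measured by probes numbered next to Ccnd1. Ccnd3 had normalized log2 ratios of 0.48, -1.02, -1.89, -1.12 and -0.16 in carcinomas 1 to 5, of 1.88, 2.22, 1.26, 0.46 and 0.57 in cirrhotic samples 1 to 5, and of -2.39, -1.56, 0.93, -0.72 and -0.02 in controls 1 to 5. All cirrhotic samples were above 4 of the 5 controls and control 3 lay among them, and the value of control 1 was at the lower limit of the deposited ratios. Ccnd3 differed by 2.03 (0.76 to 3.29) between cirrhotic and control liver (limma adjusted p = 0.307), with cirrhotic liver higher. It differed by 1.80 without noncancerous 1 and by 1.62 without control 1. Ccnd2 differed by 1.13 (-0.47 to 2.74, limma adjusted p = 0.622), and by 0.90 without noncancerous 1. In carcinoma against cirrhotic liver, Ccnd3 differed by -2.02 (-3.28 to -0.76, limma adjusted p = 0.224) and Ccnd2 by -1.13 (-2.73 to 0.48). Neither differed by more than 0.01 between carcinoma and control liver. For Ccnd3 this small difference includes control 1, at the lower limit. The other 4 controls averaged -0.34, above the carcinoma mean.

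Of 17 listed G1 cyclins and their kinases, 8 were measured beside Ccnd1. In the comparison of cirrhotic with control liver 5 of the 8 lay above 0, with a median difference of 0.48 against 0.02 for all probes. With the running median removed the median of the 8 was 0.13. Of these genes 0 passed the adjusted threshold (1 at an unadjusted p under 0.05, Ccnd3, beside 9.64% of all probes). Cdc25a, the phosphatase that activates CDK2, differed by -0.77 and Ccnh, a subunit of the CDK-activating kinase, by -0.45. For carcinoma against control liver the median was -0.02 with 4 of 8 above 0 (0.41 with 6 above 0 on the deposited ratios), with Cdk4, the kinase partner of cyclin D1, at 0.79 (-0.29 to 1.88). For carcinoma against cirrhotic liver the median was -0.30 (-0.07 with the running median removed), against -0.02 for all probes, with Cdk7, the CDK-activating kinase, at -1.29. Again 0 passed in either comparison, and 0 and 1 of these genes had an unadjusted p under 0.05. Of all probes 7.4% and 13.2% did so.

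The brakes of the same step showed no call either. All 7 measured genes of the list of cell cycle inhibitors and the RB family had a difference above 0 between cirrhotic and control liver, with a median of 0.58, but only 4 did so on the ratios as deposited or with arrays scaled to 1 median. With the running median removed the median of the 7 was 0.17. Btg1, an antiproliferative gene, differed by 1.24 (-0.03 to 2.50) and Gadd45a, a gene of the DNA damage response, by 1.15 (-0.54 to 2.83), or by 0.81 without control 1, which was at the lower limit. In carcinoma against cirrhotic liver all 7 were below 0, with a median of -0.79 (-0.44 with the running median removed), and 5 were so under the other scalings. There Btg1 differed by -1.38 and Cdkn1a, the CDK inhibitor p21, by -1.36. Against control liver, carcinoma had Cdkn2b, the CDK4 inhibitor p15, at 0.43 and Rb1, the retinoblastoma protein, at -0.96. In all 3 comparisons 0 passed the adjusted threshold, and 0, 0 and 1 had an unadjusted p under 0.05. Of all probes 9.64%, 7.4% and 13.2% did so.

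Growth signals upstream of cyclin D1 were covered by 31 measured genes of a list of 44. Between cirrhotic and control liver 21 lay above 0 (18 under either other scaling), and the median was 0.44 (0.24 with the running median removed). Of the 31 genes 5 had an unadjusted p under 0.05, all higher in cirrhotic liver, beside 9.64% of all probes in either direction. When adjusted, 0 passed. Axin1, a scaffold of the complex that degrades beta-catenin, differed by 1.92 (0.72 to 3.13, limma adjusted p = 0.307), and Igf1r, the IGF1 receptor, by 1.56 (0.26 to 2.86). Gsk3b, the kinase that marks cyclin D1 and beta-catenin for degradation, differed by -1.06 and Dvl1, a WNT signal transducer, by -0.83. Between carcinoma and cirrhotic liver 22 lay below 0 with a median of -0.49 (17 with a median of -0.02 on the deposited ratios). With the running median removed the median was -0.31. In that comparison 6 had an unadjusted p under 0.05, all lower in carcinoma, beside 13.2% of all probes in either direction, and 0 passed. Akt1, a growth factor kinase, differed by -2.06 (-3.88 to -0.23, limma adjusted p = 0.327), or by -1.45 without carcinoma 1, which was at the lower limit, and Nfkb1, a subunit of NF-kB, by -1.94 (-3.43 to -0.46). The median for carcinoma against control liver was -0.04, with Axin1 at 1.43 (0.22 to 2.64) and Apc, another part of the beta-catenin degrading complex, at -1.43 (-2.76 to -0.11).

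Myc had no order of tissues that held against its spread. The deposited ratio in carcinoma was 2.10 in sample 1, 1 in sample 2, 0.247 in sample 3, 0.214 in sample 4 and 1.75 in sample 5. In cirrhotic liver it was 0.229 in sample 1, 0.644 in sample 2, 1.21 in sample 3, 1.46 in sample 4 and 1.07 in sample 5. In control liver it was 2.68 in sample 1, 0.252 in sample 2, 1.93 in sample 3, 0.503 in sample 4 and 0.208 in sample 5. Both the highest and the lowest of the 15 ratios were in control liver, and the 3 tissues overlapped over nearly the whole range.

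Normalized, Myc averaged -0.68 ± 1.54 in carcinoma, -0.17 ± 0.80 in cirrhotic liver and -0.51 ± 1.49 in control liver (SD, n = 5 each). The means followed the order cirrhotic, control and carcinoma, and no neighbours in that order differed beyond their spread. The difference was 0.34 (-1.34 to 2.02) between cirrhotic and control liver, -0.17 (-1.85 to 1.51) between carcinoma and control liver and -0.51 (-2.18 to 1.17) between carcinoma and cirrhotic liver. Each interval reached more than 1 log2 unit to either side of 0, so a difference of that size in either direction lay within what 5 arrays a tissue left possible. The sign for carcinoma against control liver turned on the deposited ratios (0.10) and without carcinoma 4 (0.36). The medians, 0.23 in cirrhotic liver and -1.42 in control liver, differed by 1.65, and control liver held 3 low samples and 2 high ones. For carcinoma against control liver the medians differed by 1.40, opposite in sign to the means, and for carcinoma against cirrhotic liver by -0.24. Noncancerous 1, the highest cirrhotic sample for Ccnd1, was the lowest for Myc at -1.34, and without it Myc differed by 0.60 between cirrhotic and control liver, while it differed by 0.02 without control 5 and by 0.75 without control 1.

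Of 20 listed genes of the MYC network 6 were measured beside Myc. Between cirrhotic and control liver 4 lay above 0, with a median of 0.44 that was 0.08 on the deposited ratios and 0.07 with the running median removed. Mxi1, which competes with MYC for MAX, differed by 1.30 (-0.15 to 2.75), Pim1, a kinase that cooperates with MYC, by 0.61 and Mxd3, another MAX partner, by -1.01. Max itself differed by -0.08, and by 0.50 without noncancerous 1, which was at the lower limit for it. Mycn, the N-MYC paralogue, differed between carcinoma and control liver by 1.09 (-0.33 to 2.51). Carcinoma against cirrhotic liver gave 0.89 for Mxd3 and -1.05 for Pim1. Over the 3 comparisons 0 of these genes passed the adjusted threshold, and 0 had an unadjusted p under 0.05. Of all probes 9.64%, 7.4% and 13.2% had one.

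Genes reported as MYC targets were covered by 10 measured genes of 27. Between cirrhotic and control liver 8 lay above 0, with a median of 0.68 (0.28 with the running median removed). Hk2, a hexokinase of growing cells, differed by 1.66 (0.45 to 2.87). Tfrc, the transferrin receptor, differed by 1.43, or by 1.07 without control 1, which was at the lower limit. Npm1, the nucleolar protein nucleophosmin, differed by -1.02. For carcinoma against control liver 7 lay above 0, with a median of 0.27 (0.70 on the deposited ratios), and the glycolytic genes Eno1 and Ldha differed by 2.43 (0.98 to 3.89, limma adjusted p = 0.459) and 1.08 (0.05 to 2.10). Against cirrhotic liver, carcinoma differed by 1.63 in Eno1, 1.15 in Ldha, -1.48 in Hk2 and -1.34 in Tfrc. With 0 genes past the adjusted threshold, 1, 2 and 3 had an unadjusted p under 0.05 in the 3 comparisons in this order. The shares of all probes were 9.64%, 7.4% and 13.2%. Ldha was 1 of the probes whose carcinoma samples all lay above all controls, as did 1.06% of all probes.

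Stmn1 was lowest in cirrhotic liver, intermediate in carcinoma and highest in control liver. The deposited ratio in carcinoma was 0.586 in sample 1, 0.791 in sample 2, 1.12 in sample 3, 1.25 in sample 4 and 0.924 in sample 5. In cirrhotic liver it was 0.190 in sample 1, 0.504 in sample 2, 1 in sample 3, 0.193 in sample 4 and 0.585 in sample 5. In control liver it was 2.18 in sample 1, 2.08 in sample 2, 1.72 in sample 3, 1.57 in sample 4 and 1.61 in sample 5. All 5 controls lay above all 10 samples of rats on the choline-deficient diet, and carcinoma and cirrhotic liver overlapped. Of all probes, 0.133% had all 10 of these samples below all 5 controls and 0% had them all above.

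On the normalized log2 scale Stmn1 averaged -0.13 ± 0.53 in carcinoma, -1.26 ± 1.06 in cirrhotic liver and 0.97 ± 0.17 in control liver (SD, n = 5 each). Cirrhotic liver differed from control liver by -2.22 (95% interval -3.30 to -1.14), that is 4.66-fold lower, and carcinoma from control liver by -1.10 (-2.18 to -0.02), that is 2.14-fold lower. Every sample lay below every control in 0.985% of all probes for cirrhotic liver and in 0.825% for carcinoma, and nothing is read from these shares, since the gene was named for this pattern. Between carcinoma and cirrhotic liver the difference was 1.12 (0.04 to 2.20), with the carcinoma higher in 22 of 25 pairs. With 1 of the 15 samples left out, the interval included 0 in 0 omissions for cirrhotic against control liver, in 8 for carcinoma against control liver and in 10 for carcinoma against cirrhotic liver. On the deposited ratios the interval for carcinoma against control liver also included 0 (-2.09 to 0.07). The comparisons against control liver share the same 5 controls, whose spread of 0.17 was the smallest of the 3 tissues for this gene. In whole tissue, fewer cells of a type and less RNA per cell cannot be told apart.

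Stretches of the probe numbering moved with Stmn1. Its probe is numbered 3711, and the running median there was between -0.30 and 0.47 in carcinoma, between -1.65 and -0.09 in cirrhotic liver and between -0.02 and 0.81 in control liver. With that running median removed, Stmn1 averaged -0.16 ± 0.41 in carcinoma, -0.62 ± 0.48 in cirrhotic liver and 0.40 ± 0.36 in control liver (SD, n = 5 each). The differences were then -1.02 (-1.85 to -0.19) between cirrhotic and control liver, -0.56 (-1.39 to 0.27) between carcinoma and control liver and 0.46 (-0.37 to 1.29) between carcinoma and cirrhotic liver. Control 3 then lay at -0.05, below noncancerous 3 at 0 and 3 of the carcinomas, so the groups overlapped. On that scale all cirrhotic samples lay below all controls in 0.24% of all probes, and all carcinomas in 0.745%. The direction was kept in each comparison and the differences were smaller.

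Microtubule genes were covered by 17 measured genes beside Stmn1, of 35 listed. Between cirrhotic and control liver 13 of the 17 lay below 0 with a median of -0.30 (10 with a median of -0.12 on the deposited ratios), and with the running median removed the list's median was 0.04. Mark1, a kinase that detaches microtubule-associated proteins, differed by -2.03 (-3.42 to -0.64, limma adjusted p = 0.355). All its cirrhotic samples lay below all controls, as in 0.985% of all probes. Kif3c, a kinesin motor, differed by -1.07 (-2.10 to -0.05). Tubb5, a beta-tubulin, differed by 0.45 and Map1a, a microtubule-associated protein, by 0.64. Stmn4, the other stathmin measured, differed by -0.73 between cirrhotic and control liver and by -0.59 between carcinoma and control liver, with both intervals including 0. Noncancerous 1 was at the lower limit for it, and without that sample cirrhotic and control liver differed by -0.18. The list's median for carcinoma against control liver was -0.24, with Dynll1, a dynein light chain, at 0.94 (0.27 without control 2, at the lower limit), Tuba1a, an alpha-tubulin, at 0.92 and Kif3c at -1.03. In carcinoma against cirrhotic liver 12 lay above 0, the median was 0.27 (-0.05 with the running median removed), and Mark2 differed by 1.40 (0.30 to 2.50). Across these comparisons 0 passed the adjusted threshold, and 2, 1 and 1 of the 17 genes had an unadjusted p under 0.05. Of all probes 9.64%, 7.4% and 13.2% did so.

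The machinery of S phase and mitosis, where these growth genes act, gave no call. Of 32 listed replication genes 13 were measured, and 3 lay above 0 between cirrhotic and control liver, 4 between carcinoma and control liver and 7 between carcinoma and cirrhotic liver. Under either other scaling these counts were 5, 7 and 8. Pcna, the sliding clamp of DNA polymerase, differed by 0.81 (-0.43 to 2.05) between cirrhotic and control liver and by -1.34 (-2.58 to -0.10) between carcinoma and cirrhotic liver. Pold1, the catalytic subunit of polymerase delta, differed by -1.11 between cirrhotic and control liver and by -1.24 between carcinoma and control liver. Of 28 mitotic genes only 5 were measured, so the median of that list rests on few values. Plk1, a mitotic kinase, differed by -1.69 (-2.74 to -0.65, limma adjusted p = 0.224) between carcinoma and cirrhotic liver, with all carcinomas below all cirrhotic samples, as in 1.46% of all probes. Wee1, which holds CDK1 inactive, differed by -1.90 in that comparison and by 1.27 between cirrhotic and control liver. Cdk1 itself differed by 0.47 between carcinoma and control liver, and by -0.02 without control 1, which was at the lower limit.

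**Figure D4:**
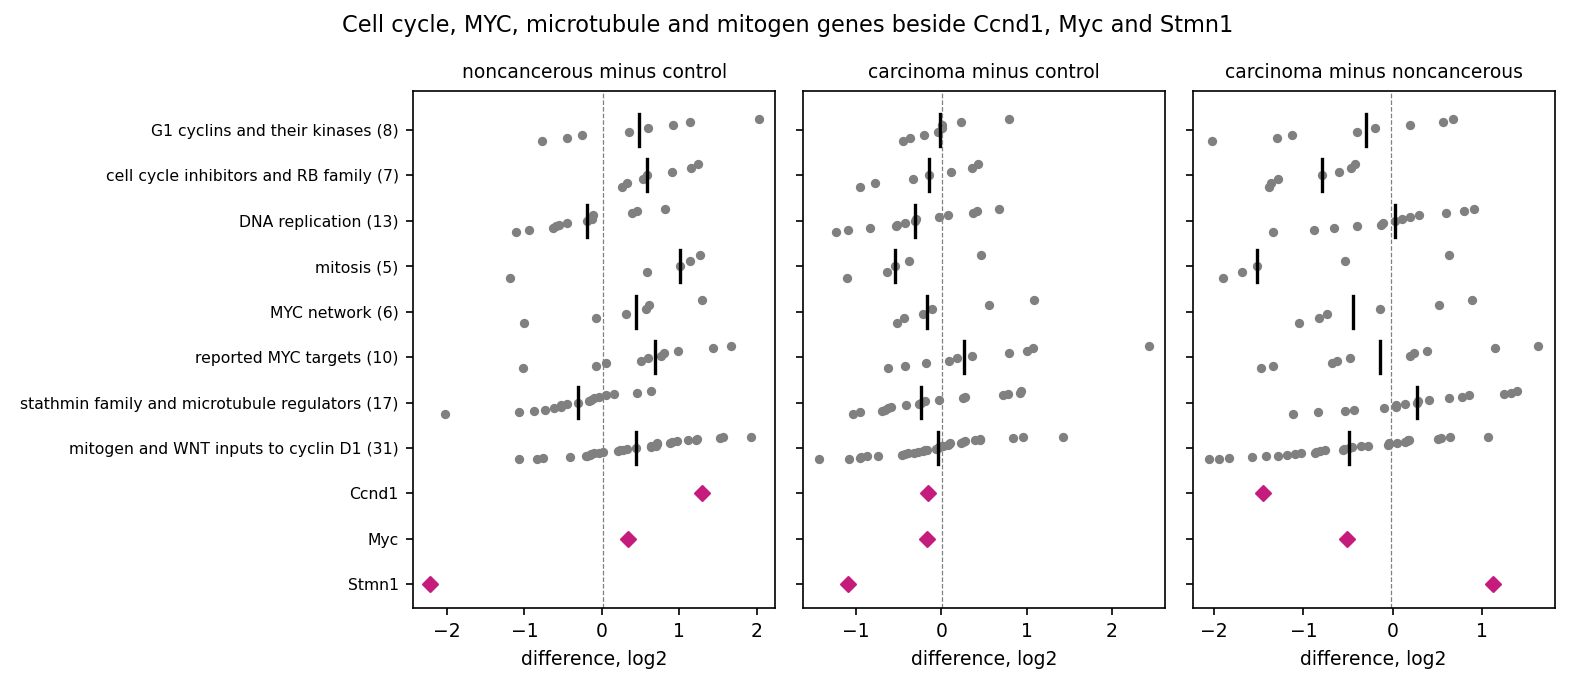
Differences in log2 units (horizontal axis) of the measured genes of 8 lists (grey points, number of genes in brackets, black bar at the median) and of Ccnd1, Myc and Stmn1 (magenta diamonds) in each comparison; the dashed line is the median of all probes. Stmn1 lies at -2.22, -1.10 and 1.12 and Ccnd1 at 1.29, -0.15 and -1.45 in the 3 panels.

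Over the 8 lists together 96 genes were measured beside Ccnd1, Myc and Stmn1, and 0 passed an adjusted p of 0.05 in limma. An unadjusted p under 0.05 was reached by 9.38% of them between cirrhotic and control liver, 6.25% between carcinoma and control liver and 15.6% between carcinoma and cirrhotic liver, near the shares of all probes. On the ratios as deposited the median of all probes was 0.11, 0.13 and 0.05 in the 3 comparisons, against 0.02, 0.003 and -0.02 after quantile normalization, and list counts shift with it.

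The 3 genes did not move as 1 group across samples. Over the 15 samples Pearson's r of the normalized log2 ratios was 0.46 between Ccnd1 and Myc, -0.54 between Ccnd1 and Stmn1 and -0.28 between Myc and Stmn1. Without noncancerous 1 the value for Ccnd1 and Myc was 0.79 over 14 samples, and with the running median also removed it was 0.57. These values share arrays and the shifts along the probe numbering, and they are descriptions.

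The genes whose pattern over the 15 samples was most like Ccnd1 were Mx1, an interferon-induced antiviral protein, with r = 0.94, Tdo2, a hepatic enzyme of tryptophan breakdown, with 0.88, Fxyd2 with 0.87, Htt with 0.86 and Atp2a2 with 0.86. Without noncancerous 1 these were 0.83 to 0.94, so the likeness did not rest on that sample, and with the running median removed over the 15 samples they were 0.85, 0.55, 0.75, 0.63 and 0.66. Most like Myc were Cat, the enzyme catalase, with 0.97, Lhx5 with 0.96, Cltb with 0.91, Omp with 0.90 and Hspb1, a small heat shock protein, with 0.90. With the running median removed these were 0.87, 0.95, 0.71, 0.71 and 0.87. Most like Stmn1 were Got1, cytosolic aspartate aminotransferase, with 0.90, Acan with 0.89, Vim, an intermediate filament of mesenchymal cells, with 0.84, B3gat1 with 0.83 and Ppp1r1a with 0.82. Got1, Acan and Ppp1r1a have probe numbers within 20 of Stmn1, and with the running median removed they stood at 0.67, 0.66 and 0.39, beside 0.60 for Vim and 0.69 for B3gat1. Of all probes 12.8%, 12.3% and 9.32% had an r above 0.5 with Ccnd1, Myc and Stmn1.

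Markers of the cell types that such tissue holds were compared beside these genes. Stellate cell and myofibroblast markers, 8 measured of 10, had a mean normalized log2 ratio of 0.20 (range of samples -0.23 to 0.60) in carcinoma, -0.38 (-0.65 to -0.26) in cirrhotic liver and 0.01 (-0.19 to 0.14) in control liver. Between cirrhotic and control liver 4 of these 8 markers lay above 0 and 4 below, with a median of -0.07 and a range of -1.37 to 0.74. Hepatocyte markers, 10 measured of 12, averaged 0.41 (-0.18 to 1.30) in carcinoma, -0.04 (-1.54 to 1.17) in cirrhotic liver and -0.17 (-1.36 to 0.30) in control liver. The 4 measured of 9 cholangiocyte and progenitor markers averaged -0.34 (-1.15 to 0.70), 0.10 (-0.64 to 0.59) and -0.10 (-1.10 to 0.93) in the same order of tissues. The 7 of 13 lymphocyte markers averaged -0.18 (-0.93 to 0.58), 0.31 (-0.19 to 0.81) and -0.27 (-0.69 to 0.23), the 3 of 8 macrophage markers 0.40 (0.24 to 0.67), -0.25 (-1.03 to 0.28) and -0.41 (-1.37 to 0.26), and the 4 of 8 endothelial markers -0.35 (-0.80 to 0.25), -0.01 (-0.50 to 0.49) and -0.05 (-0.69 to 0.73). Vim is also 1 of the stellate cell markers. Stmn1 and the stellate cell markers both had their lowest mean in cirrhotic liver, although the single markers went both ways, and the part of these cells in the Stmn1 values was not tested.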

How the data were processed

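The authors deposited 1 table of linear ratios for 15 arrays, in which every one of the 3757 probes has a median of 1 over the arrays. No source used here names the kind of array, its dyes, the scanner or any earlier correction. Of the probes, 3440 have 1 gene symbol in the platform annotation, 4 have several and 313 have none listed; 3429 of the 3440 matched a RefSeq gene of GRCr8 by identifier, the 3 members among them. Every column was used.

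Ratios were quantile-normalized, put on the log2 scale and fitted by tissue group, with no other term (lmFit and eBayes with trend, limma 3.58.1, R 4.3.3). Two-sided p-values were adjusted over all probes after Benjamini and Hochberg. Where a listed gene had more than 1 probe, the least variable one within groups stood for it. The members and lists were chosen with earlier results of these data known. Named genes are the members, up to 2 genes furthest above and below 0 per list and comparison, and the 5 genes most correlated with each member. Stmn4, and the values of Ccnd2 and Ccnd3 in comparisons where this rule does not name them, were added after their values were seen. The running median covered 50 probes on either side. The fit was tested on simulated data. Figures were drawn with matplotlib 3.10.9.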

Additional observations from a re-analysis of the deposited data

Results flagged for a closer look

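Within each tissue, the sample furthest from the others was set against the critical gap for groups of 5, for the members and the named list genes. This was done for 171 groups of 57 genes, and 7 groups (4.09%) had such a sample. The critical gap is set for about 5% of groups of normally distributed values, which is not the share over all probes here. By array, 0.133% to 0.878% of all 3757 probes stood apart upwards by that gap, and 8 to 56 probes downwards. The 7 groups are given as single values, and nothing is read from their number. Of the members, Ccnd1 had one, and as the gene was chosen with this sample's value known, its gap is a description. Noncancerous 1 was at a normalized log2 ratio of 2.67, with the other cirrhotic samples between 0.02 and 0.29. Mark1 in carcinoma 1 was -2.27, with the other carcinomas between 0.04 and 0.52. Eno1 in control 4 was 0.44, with the other controls between -1.76 and -1.32. Igf1r in carcinoma 2 was 1.06, with the others between -1.54 and -0.92. Mcm6 in noncancerous 3 was 0.96, with the others between -0.94 and -0.44. Pold1 in control 5 was 1.51, with the others between -0.07 and 0.35. Pcna in carcinoma 2 was -2.28, with the others between -0.46 and 0.22.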

How the results depend on the processing

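Each member's difference was recomputed under 27 alternatives. Stmn1 kept its sign in all 27 in each comparison, as did Ccnd1 between cirrhotic and control liver and between carcinoma and cirrhotic liver. Ccnd1 between carcinoma and control liver kept it in 22, and Myc in 24, 19 and 26 (cirrhotic and control, carcinoma and control, carcinoma and cirrhotic). Removing the running median over 50, 25 or 100 probes on either side (the last pair of widths chosen after seeing the data) moved Stmn1 to -1.02, -0.87 and -1.27 between cirrhotic and control liver and to -0.56, -0.34 and -0.61 between carcinoma and control liver, and the probes at an unadjusted p under 0.05 between cirrhotic and control liver to 151, 146 and 159, against 362. Array weights gave 756 such probes between carcinoma and cirrhotic liver, against 497. The cause was not tested.

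With 1 sample left out, the difference between cirrhotic and control liver ranged from 0.77 to 1.56 for Ccnd1, 0.02 to 0.75 for Myc and -2.58 to -1.82 for Stmn1. Between carcinoma and control liver it ranged from -0.56 to 0.22, -0.49 to 0.36 and -1.26 to -0.90, and between carcinoma and cirrhotic liver from -1.83 to -0.92, -0.84 to 0.02 and 0.71 to 1.45. Probes past the adjusted threshold stayed at 0 except between carcinoma and cirrhotic liver, where the count was 0 to 2 (2 without noncancerous 5). Unadjusted counts ranged from 279 to 528, 207 to 366 and 335 to 671 in this order of comparisons. The labels do not say that a number marks a shared animal, and same-numbered samples correlated between -0.34 and 0.39 in their deviations. With the replicate block, the members' differences are the same by construction (1.29, 0.34 and -2.22 between cirrhotic and control liver), and 0 probes passed. The intervals moved: under the block that of Ccnd1 between cirrhotic and control liver did not include 0 (0.05 to 2.53), and those of Stmn1 did for carcinoma against control liver (-2.26 to 0.06) and against cirrhotic liver (-0.04 to 2.28). Values without samples at the lower limit were added after seeing the data.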

Other observations

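All 10 samples of rats on the choline-deficient diet lay below all 5 controls for 5 of the 3757 probes (0.133%), and for 0 probes did they all lie above. The 5 were Stmn1 and, chosen after their values were seen, Mgat5, a glycosyltransferase of N-glycans, Dbp, a transcription factor of the circadian clock, Lrp4, a receptor that modulates WNT signals, and 1 probe with no symbol listed. The highest diet sample and the lowest control had normalized log2 ratios of 0.51 and 0.76 for Stmn1, 0.31 and 0.40 for Mgat5, 0.15 and 0.20 for Dbp, 0.22 and 0.35 for Lrp4, and 0.61 and 0.63 for the unnamed probe. The probes of Stmn1, Mgat5 and Dbp and the unnamed probe are numbered between 3689 and 3794, and Lrp4 is numbered 1758.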
